A study of Mus musculus with 12 samples.

Results

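The microRNA genes of the imprinted Dlk1-Dio3 locus on mouse chromosome 12 were examined in the medial prefrontal cortex of adult mice born after maternal immune activation. A gene was included if an array probe set named it alone, its symbol was Mir followed by a digit, and RefSeq places it between Dlk1 and Dio3. Of 61 microRNA genes that RefSeq lists there, 36 met this rule, out of 18820 genes with a probe set of their own on the array. Each of the 36 had 1 such probe set, so the step of taking the brightest probe set of a gene made no choice. Of the other 25, 6 were covered only by probe sets that also carry another gene (Mir431, Mir433, Mir127, Mir434 and Mir136 with the protein-coding gene Rtl1, and Mir410 with the noncoding RNA Mirg), and 19 had no probe set in the annotation used. The genes were chosen by name and position, but the locus was selected on the differences between these same samples in earlier results, so the counts and p-values of its genes are descriptions taken from the fit over the whole array and not independent evidence.

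The study compared 6 control and 6 PolyI:C offspring of the strain C57BL/6N (C57BL/6 in the design text), each measured on 1 array at 12 weeks of age after cognitive and behavioural testing. Mothers of the PolyI:C group had been given poly(I:C), double-stranded RNA made in the laboratory that mimics a virus and activates innate immunity, at 5 mg/kg intravenously on gestation day 17. Control mothers had received saline intravenously on the same day. The dissected tissue held the anterior cingulate, prelimbic and dorsal infralimbic cortex. The titles call the animals biological replicates, but the labels used here give no litter, sex or array strip, so the p-values rest on animal-to-animal spread and cannot take shared litters into account.

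MicroRNAs are short RNAs that Drosha and Dicer cut from hairpins folded in longer transcripts. Loaded into Argonaute proteins, they pair through their seed, the bases near the 5′ end, with target messages and lower their translation or stability. The microRNAs between Dlk1 and Dio3 are expressed from the maternal chromosome together with the long noncoding RNAs Meg3, Rian and Mirg, while the protein-coding genes Dlk1, Rtl1 and Dio3 are expressed from the paternal chromosome. In neurons the large cluster between Rian and Mirg is known for induction by activity through the transcription factor Mef2, and several of its products act in dendrites and at synapses.

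RefSeq (GRCm38.p6) held 68 mature sequences for the 36 genes and hairpins for 35 of them. Some are shown for genes named in the results, which come from 1 probe set per gene and not from separate mature arms. The hairpin of Mir382, the gene with the largest difference, lies at chr12:109733771-109733846 on the plus strand, with both mature arms in capitals.
Mir382 hairpin: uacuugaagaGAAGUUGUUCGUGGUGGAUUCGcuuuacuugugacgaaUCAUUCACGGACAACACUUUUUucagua
For the genes that were called in every fit with 1 sample left out, 1 or both mature arms follow, 5′ to 3′, with the seed (bases 2 to 8) in capitals.
miR-382-5p: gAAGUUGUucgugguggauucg
miR-382-3p: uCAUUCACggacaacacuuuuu
miR-134-5p: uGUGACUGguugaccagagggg
miR-485-3p: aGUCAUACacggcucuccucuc
miR-377-3p: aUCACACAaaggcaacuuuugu
miR-369-3p: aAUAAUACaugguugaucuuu
miR-487b-5p: uGGUUAUCccuguccucuucg
These sequences come from 6 genes and carry 7 different seeds.

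Among all 68 mature sequences there were 66 seeds, and 2 seeds were shared by 2 members of the locus each. They are shown because closely alike members can be set beside each other.
miR-379-3p: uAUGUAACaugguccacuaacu
miR-411-3p: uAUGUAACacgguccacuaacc
miR-376c-5p: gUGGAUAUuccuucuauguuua
miR-376b-5p: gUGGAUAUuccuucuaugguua
The neighbours Mir300 and Mir381 carry much alike 3p arms with different seeds.
miR-300-3p: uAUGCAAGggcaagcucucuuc
miR-381-3p: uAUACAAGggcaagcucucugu
A further 15 mature sequences of the locus share their seed with a mouse microRNA that is not among the 36, such as miR-329-3p with miR-362-3p and miR-377-5p with miR-672-5p.

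The arrays were alike, with medians of 5.15 to 5.21 (log2) and pairwise r of 0.994 to 0.998 across probe sets, and no columns were identical. The 4 measured markers of cortical excitatory neurons averaged 9.79 to 9.86 in controls and 9.85 to 9.90 in the PolyI:C group. As for sex, Xist, which marks cells with an inactive X chromosome, read 3.13 to 3.22 in all 12 animals. In controls, Eif2s3y read 5.29 to 6.26, Kdm5d 6.18 to 6.37 and Uty 6.19 to 6.36. In PolyI:C animals these Y-linked genes read 6.09 to 6.85, 6.22 to 6.50 and 6.30 to 6.45. Low Xist with such readings in all 12 is the pattern of male animals, though the labels do not give sex. None of the Y-linked genes Eif2s3y (0.53 ± 0.17, adjusted p = 0.0885), Kdm5d (0.17 ± 0.05, adjusted p = 0.0515) and Uty (0.08 ± 0.03, adjusted p = 0.228) passed with all samples, and Kdm5d did without control 4 or PolyI:C animal 2. The labels name a T7 oligo(dT) primer and either a 3′ IVT or a whole-transcript kit without saying which was used. Either way a probe set laid on a hairpin can be reached by the longer transcript that holds it. No value can therefore be read as mature microRNA alone, and whether mature microRNA adds to the values was not tested. For bulk tissue, fewer cells of a type and less RNA per cell cannot be told apart.

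Of the 36 microRNA genes, 16 were higher in PolyI:C offspring at an adjusted p under 0.05, 0 were lower and 20 did not pass. Over the 23099 probe sets tested, 2.02% were called higher and 0.805% lower, 2.83% in either direction. The difference, PolyI:C minus control, was above 0 for 35 of the 36 genes, where 52.0% of all probe sets lay above 0. Its median was 0.22 on the log2 scale against 0.0030 over all probe sets, and it ranged from -0.07 for Mir299a to 0.61 for Mir382. The 16 called genes were 1.18-fold to 1.52-fold higher, with adjusted p from 0.0048 to 0.0446. Of the 20 others, 10 had an unadjusted p under 0.05, and their adjusted p ran from 0.0531 to 0.642. Over all probe sets tested, 19.1% had an unadjusted p under 0.05, and 11.7% in the higher direction.

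**Figure D1:**
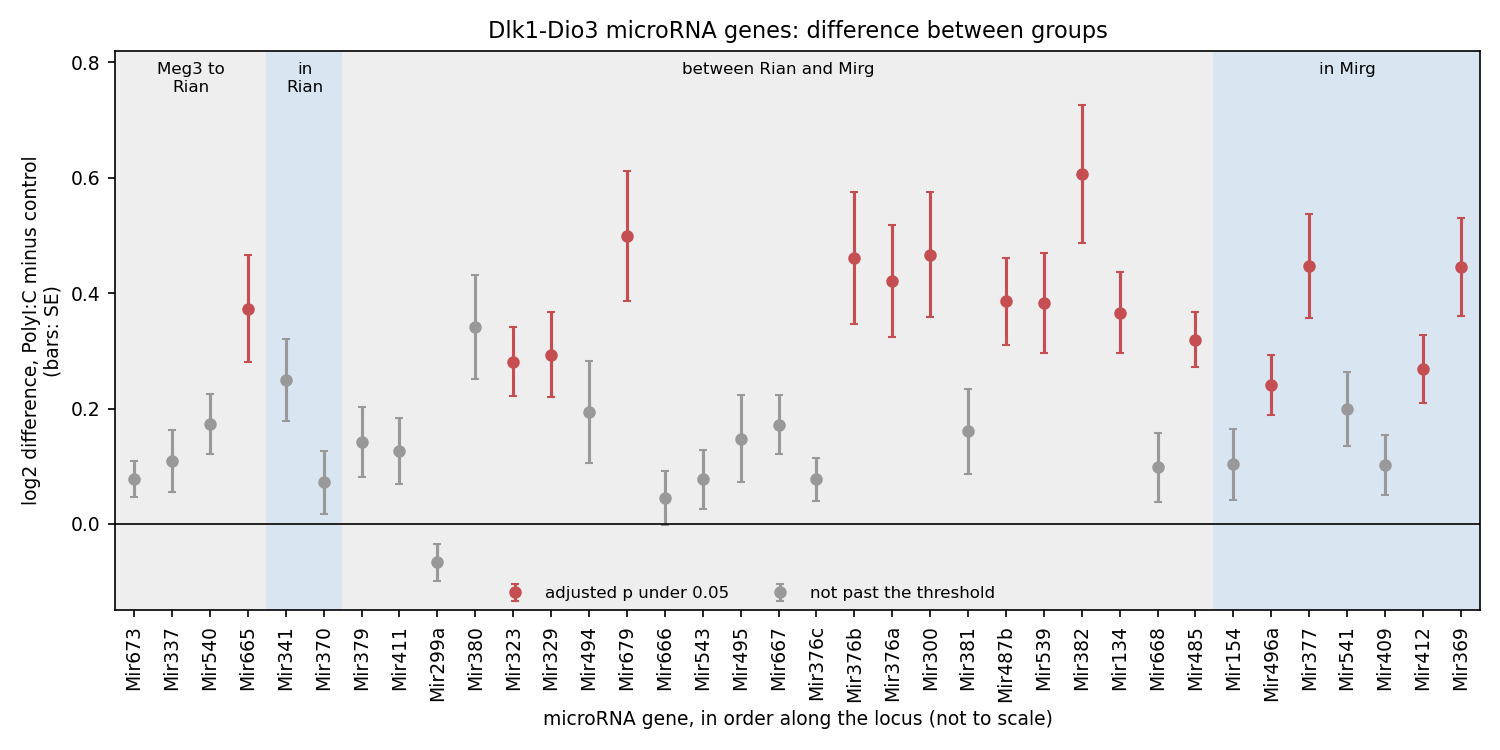
The log2 difference between the groups (PolyI:C minus control, bars show the moderated SE, n = 6 per group) is plotted for the 36 microRNA genes in their order along the locus, without scale, in shaded segments set by the long noncoding RNAs. Red points are the 16 genes past the adjusted threshold, 11 of which lie between Rian and Mirg, and Mir299a is the gene below 0.

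MicroRNA genes elsewhere in the genome gave a different picture on the same arrays. They were taken by symbol, so the host gene Mir100hg (0.18 ± 0.06, adjusted p = 0.104) is counted with them. Of 259 with a probe set of their own, 6 were higher (2.32%) and 1 was lower. Of the differences, 50.2% were above 0, and the median was 0.00077. The 6 were Mir128-1, with a difference of 0.60, Mir138-2 (0.34), Mir181b-1 (0.29), Mir505 (0.26), Mir23b (0.18) and Mir151 (0.16). Counting both directions, their 7 calls fell to 1 without control 2, control 3 or PolyI:C animal 1, to 2 without control 1, to 3 without PolyI:C animal 6 and to 4 without control 6, and numbered 10 without control 4. The mean over the 259 genes was 4.12 ± 0.02 in controls and 4.14 ± 0.02 in the PolyI:C group (log2, SD, n = 6 each). The mean over the 36 locus genes was 4.72 ± 0.08 in controls and 4.97 ± 0.13 in the PolyI:C group.

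Probe sets of microRNAs are often dim, and a difference near the floor of an array is compressed. Of the 36 genes, 15 lay below the 25th percentile of level over all tested probe sets (4.34 on the log2 scale), 11 between that and the 50th percentile (5.80), and 10 at or above it. The called numbers in these classes were 5, 6 and 5, with median differences of 0.15, 0.27 and 0.27. The corresponding microRNA genes outside the locus numbered 161, 81 and 17 (the last with the host gene Mir100hg), of which 1, 3 and 2 were called higher. Over all tested probe sets below the 25th percentile, 12 were called higher and 31 lower out of 5775. From the 25th to the 50th percentile these numbers were 64 and 63 out of 5774. At or above the 50th percentile they were 391 and 92 out of 11550, with 65.7% of differences above 0. Across the 36 genes, level and difference correlated weakly (r = 0.21, a description over genes that share arrays and transcripts).

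**Figure D2:**
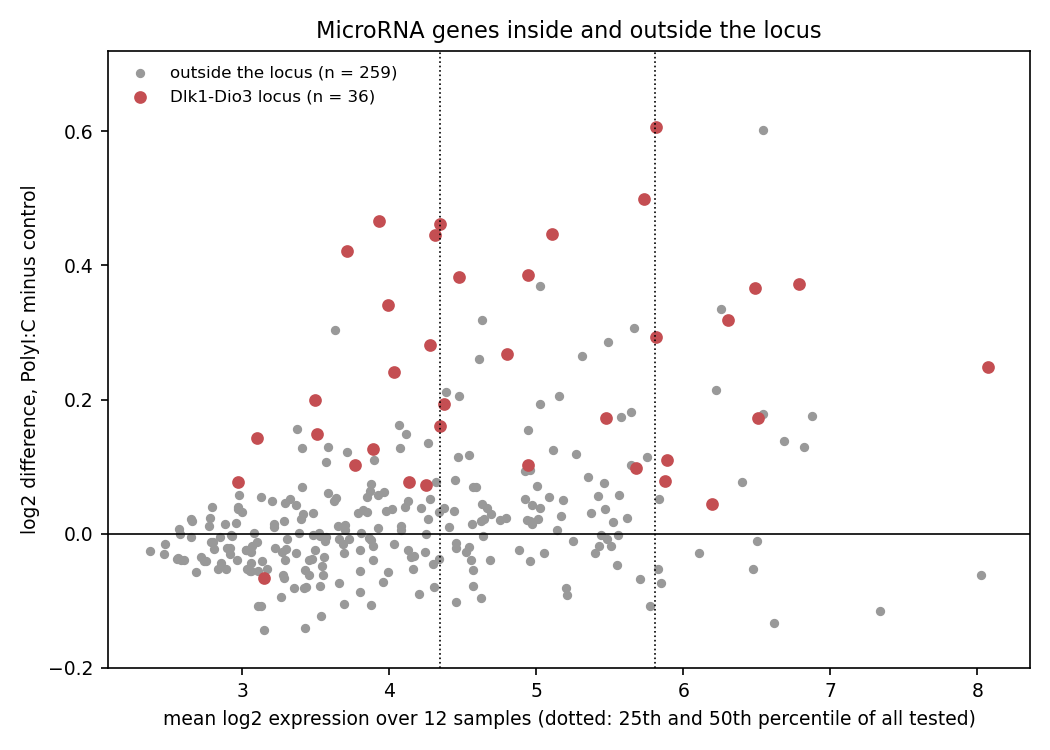
The log2 difference between the groups is plotted against the mean log2 expression over 12 samples for 36 microRNA genes of the locus (red) and 259 elsewhere (grey), with dotted lines at the 25th and 50th percentiles of all tested probe sets. The red points lie above 0 at every level except for Mir299a, and the grey points scatter around 0, with Mir128-1 at 0.60.

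The stretch from Meg3 to Rian held 4 measured microRNA genes, of which Mir665 was called. Mir665 (probe set 10398338) read 6.33, 6.54, 6.61, 6.87, 6.53 and 6.71 in controls 1 to 6, and 7.21, 6.82, 6.86, 6.84, 6.82 and 7.28 in PolyI:C animals 1 to 6 (log2 expression, as all sample values below, in the same order). PolyI:C animals 1 and 6 stood apart from the other 4, which overlapped with control 4. The difference was 0.37 ± 0.09 (SE), from 6.60 ± 0.18 to 6.97 ± 0.21 (SD, n = 6 each), with adjusted p = 0.0417. Its call was lost without any of controls 1, 2, 3, 5 or 6 or PolyI:C animals 1, 3, 4 or 6, with adjusted p up to 0.0918, and so it was the least stable of the 16. The others did not pass: Mir673, Mir337 and Mir540 had differences of 0.08, 0.11 and 0.17 (adjusted p = 0.184, 0.284 and 0.0770).

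Within Rian lay Mir341 and Mir370, and neither passed. Mir341 (probe set 10398350) had the brightest probe set of all 36 genes. It read 7.92, 7.97, 7.79, 8.18, 7.89 and 7.93 in controls and 8.44, 8.01, 8.16, 8.14, 8.08 and 8.35 in PolyI:C animals, a difference of 0.25 ± 0.07 (adjusted p = 0.0674). Control 4 was above 4 of the 6 PolyI:C animals, and without that control Mir341 passed, as it did without PolyI:C animal 2. Mir370 read 4.01 to 4.32 in controls and 4.10 to 4.39 in PolyI:C animals (0.07 ± 0.05, adjusted p = 0.498), among the smallest differences of the locus.

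The cluster between Rian and Mirg held 23 of the 36 genes and 11 of the 16 calls, with a median difference of 0.28. Its upstream part, from Mir379 to Mir667, held 3 called genes among 12. Mir679 (probe set 10398396) was the most changed of them. It read 5.39, 5.36, 5.24, 5.70, 5.57 and 5.64 in controls and 6.42, 5.80, 5.79, 5.91, 5.70 and 6.28 in PolyI:C animals. Animals 1 and 6 were again the highest, and PolyI:C animal 5 fell within the control range. The difference was 0.50 ± 0.11, from 5.48 ± 0.18 to 5.98 ± 0.30 (SD, n = 6), with adjusted p = 0.0284.

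Mir329 encodes a microRNA that, with miR-134 and miR-381, is known to be needed for activity-dependent growth of dendrites. It read 5.48, 5.55, 5.60, 5.82, 5.80 and 5.76 in controls and 6.19, 5.98, 5.77, 5.86, 5.86 and 6.12 in PolyI:C animals, so that all but PolyI:C animal 3 were above every control. Its difference was 0.29 ± 0.07 (adjusted p = 0.0446), nearest to the threshold among the called genes. Mir323 rose by 0.28 ± 0.06 (adjusted p = 0.0221), from 4.13 ± 0.15 to 4.42 ± 0.09. Just outside the threshold lay its neighbour Mir380, with a difference of 0.34 ± 0.09 and adjusted p = 0.0531.

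The other genes of this upstream part did not pass. Mir379, Mir411, Mir494, Mir495 and Mir667 had differences from 0.13 to 0.19, and Mir543 of 0.08. Mir667, the third brightest probe set of the 36, read 6.27 to 6.50 in controls and 6.43 to 6.70 in PolyI:C animals (0.17 ± 0.05, adjusted p = 0.0761). Mir666 had the smallest difference of all, 0.04 ± 0.05 (adjusted p = 0.642), with 6.13, 6.14, 6.20, 6.29, 6.13 and 6.15 in controls and 6.09, 6.20, 6.11, 6.24, 6.36 and 6.30 in PolyI:C animals, and its PolyI:C animal 1, highest for many neighbours, was the lowest of all 12 samples. Mir299a was dim and the sole gene below 0: it read 3.21, 3.18, 3.15, 3.16, 3.15 and 3.23 in controls and 3.05, 3.17, 3.16, 3.14, 3.04 and 3.12 in PolyI:C animals (-0.07 ± 0.03, adjusted p = 0.277). All 6 of its PolyI:C values were below the control mean, by 0.07 on average, where the control SD was 0.04.

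The miR-376 family follows, known for adenosine-to-inosine editing of its precursors in brain, which can alter the seed and so the targets. Mir376b (probe set 10398408) read 4.02, 3.98, 4.00, 4.29, 4.25 and 4.13 in controls and 5.05, 4.38, 4.29, 4.77, 4.23 and 4.73 in PolyI:C animals. Mir376a (probe set 10398410) read 3.36, 3.34, 3.47, 3.68, 3.60 and 3.56 in controls and 4.29, 3.92, 3.65, 4.09, 3.62 and 3.97 in PolyI:C animals. In both, PolyI:C animals 1, 2, 4 and 6 were above every control, animal 3 lay at the level of the highest control, and animal 5 lay inside the control range. The differences were 0.46 ± 0.11 (adjusted p = 0.0401) and 0.42 ± 0.10 (adjusted p = 0.0298). Mir376c, whose hairpin matches that of Mir376b at 80.7% of aligned bases, the closest pair of the 595 compared, had the dimmest probe set of all 36 genes and read 2.82 to 3.00 in controls and 2.95 to 3.09 in PolyI:C animals (0.08 ± 0.04, adjusted p = 0.275). The difference between these neighbours was not tested.

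Mir300 and Mir381, the pair with alike 3p arms shown above (73.8% hairpin identity), also had unlike values. Mir300 (probe set 10398412) read 3.55, 3.61, 3.46, 3.80, 3.94 and 3.82 in controls and 4.61, 4.11, 4.07, 4.01, 3.83 and 4.35 in PolyI:C animals. Its difference was 0.47 ± 0.11, from 3.70 ± 0.18 to 4.16 ± 0.27 (SD, n = 6), with adjusted p = 0.0310, and PolyI:C animal 5 was the one that did not exceed control 5. Mir381 read 4.16, 4.16, 4.07, 4.41, 4.33 and 4.44 in controls and 4.61, 4.43, 4.26, 4.39, 4.25 and 4.60 in PolyI:C animals, with 4 of the 6 inside the control range (0.16 ± 0.07, adjusted p = 0.250). As for the miR-376 family, the difference between both genes was not tested.

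The downstream part of the cluster, from Mir487b to Mir485, held the gene with the largest difference, Mir382, and 4 of the 6 genes called in every fit with 1 sample left out. Mir382 (probe set 10398420) read 5.25, 5.50, 5.42, 5.47, 5.86 and 5.56 in controls and 6.38, 6.11, 5.76, 6.29, 5.73 and 6.42 in PolyI:C animals. PolyI:C animals 3 and 5 lay between control 6 and control 5, and the other 4 were above every control. The difference was 0.61 ± 0.12, or 1.52-fold, from 5.51 ± 0.20 to 6.12 ± 0.31 (SD, n = 6), with adjusted p = 0.0161. With each sample left out in turn it stayed between 0.54 and 0.68.

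Mir134, whose product is known to repress Limk1 and limit the size of dendritic spines, read 6.17, 6.27, 6.20, 6.34, 6.50 and 6.36 in controls and 6.85, 6.68, 6.49, 6.50, 6.63 and 6.87 in PolyI:C animals. Control 5 stood in the range of the lowest PolyI:C animals, and the difference was 0.37 ± 0.07 (adjusted p = 0.0138). Mir485, whose product is known to act on presynaptic protein levels, was the called gene with the lowest adjusted p. It read 6.05, 6.08, 6.15, 6.13, 6.28 and 6.18 in controls and 6.54, 6.48, 6.30, 6.49, 6.39 and 6.58 in PolyI:C animals, and the groups did not overlap. The difference was 0.32 ± 0.05, from 6.15 ± 0.08 to 6.46 ± 0.10 (SD, n = 6), with adjusted p = 0.0048.

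Mir487b (probe set 10398416) read 4.61, 4.71, 4.75, 4.98, 4.78 and 4.68 in controls and 5.43, 5.12, 4.97, 5.14, 4.91 and 5.23 in PolyI:C animals. Control 4 overlapped with PolyI:C animals 3 and 5, and the difference was 0.39 ± 0.08 (adjusted p = 0.0160). Mir539 (probe set 10398418) read 4.15, 4.19, 4.18, 4.29, 4.47 and 4.40 in controls and 4.94, 4.65, 4.42, 4.80, 4.37 and 4.80 in PolyI:C animals, a difference of 0.38 ± 0.09 (adjusted p = 0.0293). PolyI:C animals 3 and 5 again lay among the controls. Mir668, between Mir134 and Mir485, differed by 0.10 ± 0.06 and did not pass (adjusted p = 0.390).

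Within Mirg, at the far end of the cluster, 4 of 7 genes were called. Mir377 (probe set 10398432) read 4.73, 4.86, 4.58, 5.00, 5.26 and 4.87 in controls and 5.55, 5.24, 5.12, 5.35, 5.33 and 5.40 in PolyI:C animals. Mir369 (probe set 10398440), whose product has been studied for binding AU-rich elements of cytokine messages, read 3.97, 4.09, 4.04, 4.07, 4.33 and 4.05 in controls and 4.80, 4.52, 4.41, 4.56, 4.19 and 4.74 in PolyI:C animals. In both, control 5 was the highest control and reached into the PolyI:C range. The differences were 0.45 ± 0.09 (adjusted p = 0.0173) and 0.45 ± 0.08 (adjusted p = 0.0138).

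Mir496a read 3.79, 3.88, 3.79, 3.99, 4.00 and 4.03 in controls and 4.27, 4.09, 4.09, 4.24, 4.04 and 4.17 in PolyI:C animals. It was the other gene besides Mir485 without overlap, though control 6 and PolyI:C animal 5 nearly touched, and it differed by 0.24 ± 0.05 (adjusted p = 0.0225). Mir412 rose by 0.27 ± 0.06 (adjusted p = 0.0253), from 4.67 ± 0.08 to 4.94 ± 0.15. Mir154, Mir541 and Mir409 differed by 0.10, 0.20 and 0.10 (adjusted p = 0.376, 0.0997 and 0.299). Groups without overlap in the higher direction made up 1.73% of all tested probe sets, and 2.37% had none in either direction, against 2 of the 36 genes.

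The samples ranked alike for many genes of the locus, though not for all, with Mir666, Mir370 and Mir299a among the exceptions. PolyI:C animal 1 was the highest of the 12 samples for 20 of the 36 genes and animal 6 for 9. Control 1 was the lowest for 13 genes, control 3 for 11, and control 2 and PolyI:C animal 5 for 4 each. Averaged over the 36 genes, the PolyI:C animals 1 to 6 stood at 5.15, 4.94, 4.85, 4.96, 4.82 and 5.10, and the controls at 4.64, 4.68, 4.64, 4.83, 4.79 and 4.76. Control 4 was thus just above PolyI:C animal 5. All 6 PolyI:C animals were above the control mean for 24 genes, 5 of them for 7 genes, 4 for 4 genes and 0 for Mir299a. Neighbouring genes are cut from shared transcripts, so the 36 genes are not 36 separate observations of the treatment.

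**Figure D3:**
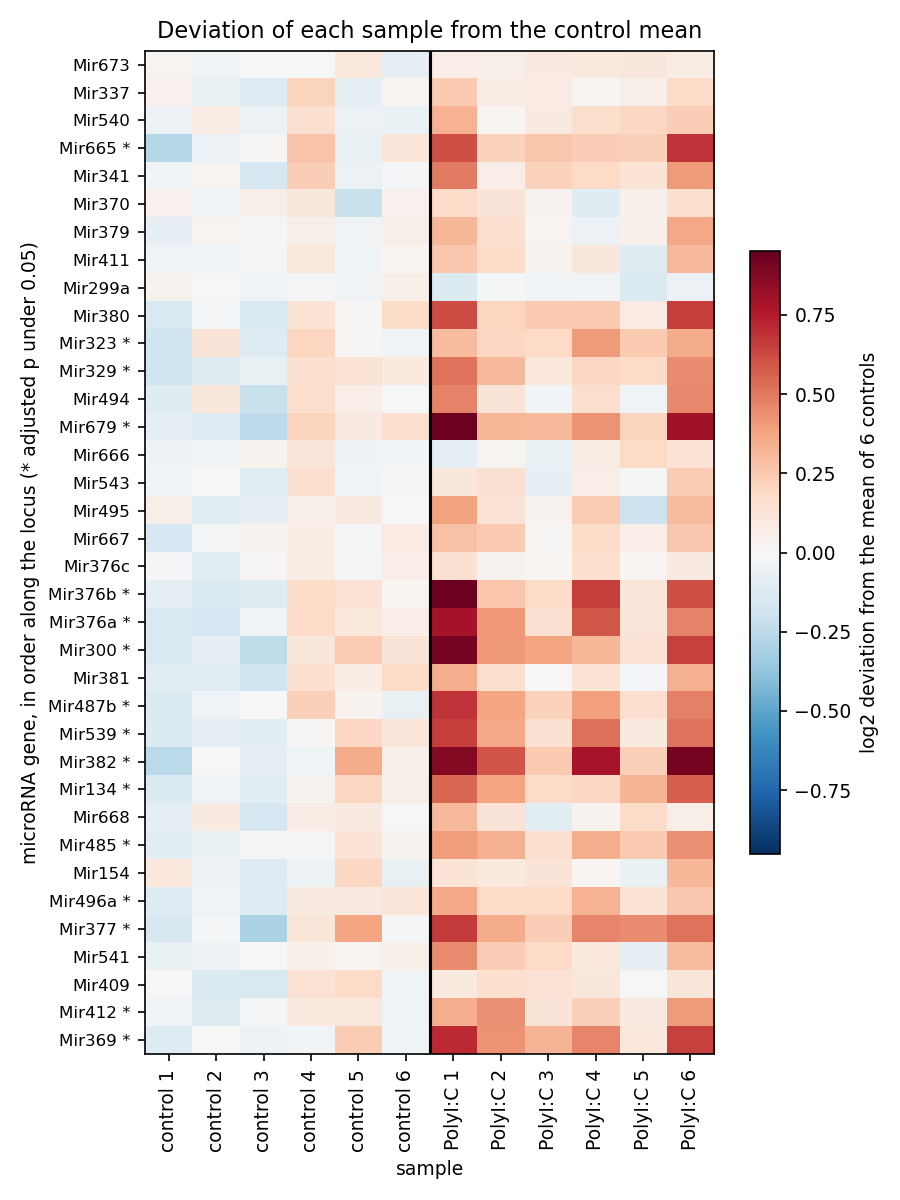
Each cell is the log2 deviation of a sample (columns) from the mean of the 6 controls for a microRNA gene (rows, in order along the locus, with an asterisk for an adjusted p under 0.05). PolyI:C animals 1 and 6 hold the darkest red cells, controls 1 to 3 are mostly blue, and PolyI:C animal 5 is the palest of its group.

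Leaving out each sample in turn gave between 6 and 19 called genes, with 35 differences above 0 each time. It fell to 7 when control 1 or 2 was removed, to 6 for control 3 or PolyI:C animal 1, and to 8 for PolyI:C animal 4 or 6. It was 19 without control 4 and 18 without PolyI:C animal 2 or animal 5. Mir382, Mir485, Mir134, Mir487b, Mir377 and Mir369 were called in all 12 of these fits, with a highest adjusted p of 0.0462. Mir329, Mir376b, Mir679, Mir376a, Mir539 and Mir665 were each lost without any of controls 1 to 3 and without PolyI:C animal 1, 4 or 6, with adjusted p up to 0.102 for Mir329, 0.0931 for Mir376b, 0.0705 for Mir679, 0.0753 for Mir376a and 0.0713 for Mir539. Mir329 was also lost without control 6 or PolyI:C animal 2, and Mir376b without control 6. Mir300 and Mir412 were lost without controls 1 to 3 or PolyI:C animals 1 or 6, Mir496a without controls 1 to 3 or PolyI:C animals 1 or 4, and Mir323 without control 3 or PolyI:C animals 1 or 4 (adjusted p up to 0.0739, 0.0658, 0.0584 and 0.0533).

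**Figure D4:**
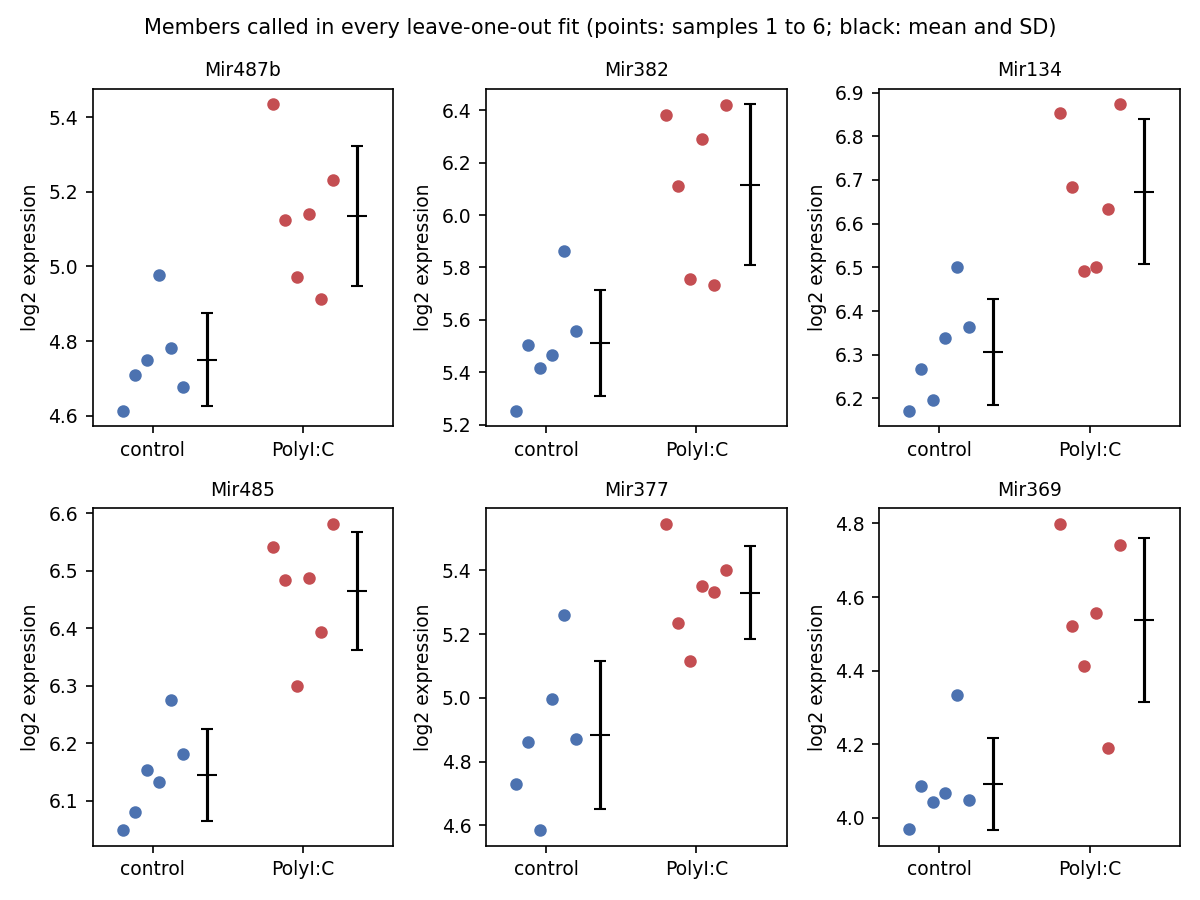
Log2 expression is plotted for the 6 microRNA genes called in every fit with 1 sample left out, with points for animals 1 to 6 of each group from left to right and black marks for the mean and SD, on separate axes that do not start at 0. The groups are apart for Mir485, and control 5 is the highest control for each gene shown except Mir487b, where it is control 4.

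**Figure D5:**
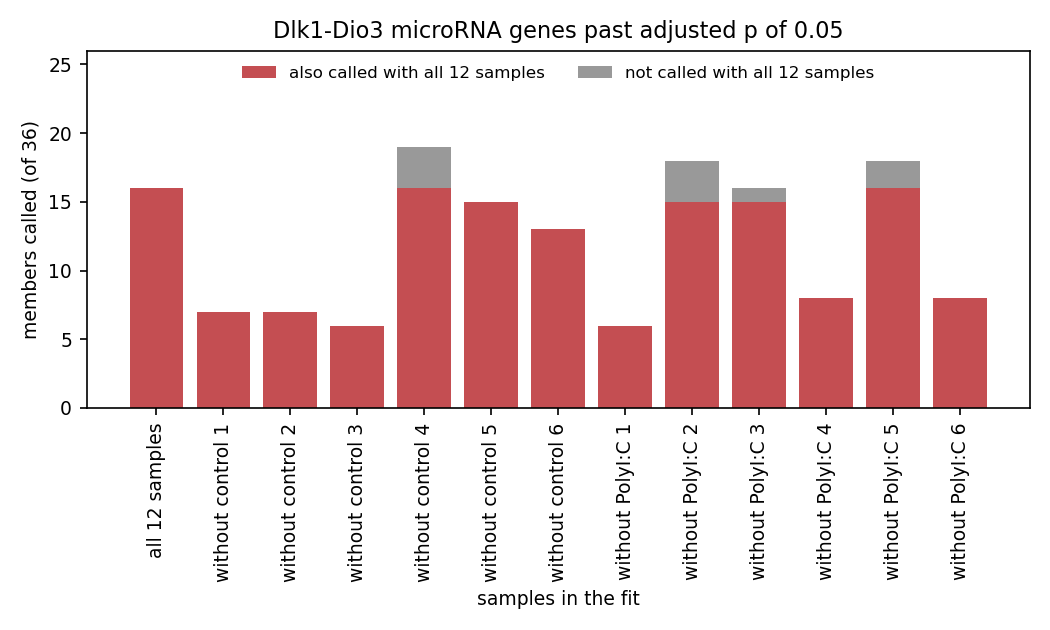
Bars count the microRNA genes of the locus past an adjusted p of 0.05 with all 12 samples and with each sample left out, in red those among the 16 of the full fit and in grey those not among them. The count falls to 6 without control 3 or PolyI:C animal 1 and reaches 19 without control 4.

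The long transcripts that carry the microRNAs were read from the same arrays. Rian (probe set 10398360), the long noncoding RNA of the middle of the locus, read 5.01, 5.26, 5.10, 5.85, 5.34 and 5.16 in controls and 6.10, 5.83, 5.72, 6.01, 5.57 and 6.15 in PolyI:C animals, a difference of 0.61 ± 0.12 (adjusted p = 0.0169). Meg3 (probe set 10398326), at the start of the maternally expressed transcripts, read 9.23, 9.54, 9.23, 9.70, 9.59 and 9.52 in controls and 10.03, 9.81, 9.76, 9.93, 9.56 and 10.06 in PolyI:C animals, a difference of 0.39 ± 0.09 (adjusted p = 0.0307). PolyI:C animals 1 and 6 were the highest for both, as for most microRNA genes, and control 4 the highest control. The call of Meg3 was lost without control 1, 2 or 3 or PolyI:C animal 1, 4 or 6 (adjusted p up to 0.0731), the samples on which many microRNA calls rested, while that of Rian was kept in all 12 fits.

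Of the genes known for paternal expression, Dlk1 and Dio3 had differences of the other sign and did not pass. Dlk1, which encodes a Notch-related membrane protein, read 5.83 to 6.19 in controls and 5.19 to 5.89 in PolyI:C animals (-0.28 ± 0.09, adjusted p = 0.107). Dio3, which encodes the deiodinase that inactivates thyroid hormone, read 4.59 to 4.78 in controls and 4.27 to 4.69 in PolyI:C animals (-0.17 ± 0.06, adjusted p = 0.107), and passed without PolyI:C animal 5 (adjusted p = 0.0397). Of 9 long transcripts of the locus and its flanks with a probe set of their own, 2 were called higher and 0 lower. Over all probe sets tested the shares were 2.02% and 0.805%. Rtl1, Mirg and Dio3os had no probe set of their own and were not analysed here.

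The promoter window of Meg3 is shown because this start site is known for a cAMP response element, the site bound by CREB. Whether this site has a part in the differences was not tested. The window runs from 250 bases before to 50 after the annotated start (RefSeq, GRCm38.p6, chr12:109540746-109541045, plus strand), with the octamer TGACGTCA, its own reverse complement, in capitals.
Meg3 promoter: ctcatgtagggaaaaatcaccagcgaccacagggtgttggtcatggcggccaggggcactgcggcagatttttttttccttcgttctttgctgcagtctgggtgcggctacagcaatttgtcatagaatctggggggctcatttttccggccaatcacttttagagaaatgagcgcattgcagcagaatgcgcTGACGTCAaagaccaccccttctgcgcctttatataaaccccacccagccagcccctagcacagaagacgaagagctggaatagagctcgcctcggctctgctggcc
The octamer is in 588 of 32851 promoter windows of that length (1.79%). It was not found in the windows of a second Meg3 start, Rian, Mirg, Dlk1 or Dio3, and a match is a description of letters only.

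The machinery that makes and uses microRNAs was read next. Of 20 genes for processing and Argonaute function, 0 passed in limma, 5 had an unadjusted p under 0.05, against 19.1% of all probe sets, and 15 differences were above 0. Ddx17, an RNA helicase of the Drosha complex, had the lowest p, from 8.74 ± 0.08 to 8.88 ± 0.05 (0.13 ± 0.04, adjusted p = 0.0702), and passed without control 4 (adjusted p = 0.0355). Its partner Ddx5 differed by 0.11 ± 0.04 (adjusted p = 0.162), the nuclease Drosha by 0.07 ± 0.03 (adjusted p = 0.214) and Ago1 by 0.07 ± 0.03 (adjusted p = 0.210).

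Of 15 genes known to act on the imprint or promoters of the locus, 0 passed in limma and 6 had an unadjusted p under 0.05, again against 19.1% of all probe sets. Tet2, which oxidises methylated cytosine, differed by 0.15 ± 0.04 at the edge of the threshold (adjusted p = 0.050) and passed without control 6 (0.0391) or PolyI:C animal 5 (0.0449). Zfp57, a zinc finger protein that keeps methylation at imprinted regions, differed by 0.23 ± 0.06 (adjusted p = 0.0584), from 6.18 ± 0.14 to 6.41 ± 0.12, and passed without control 5 (0.0276) or PolyI:C animal 3 (0.0323). The related Zfp445 differed by 0.10 ± 0.04 (adjusted p = 0.151) and the methyltransferase Dnmt3a by 0.11 ± 0.04 (adjusted p = 0.186).

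Of 11 genes on a list of reported neuronal microRNA targets, 0 passed in limma and 5 differences were above 0. An unadjusted p under 0.05 was found for 2, a share near the 19.1% of all probe sets. Whether microRNAs of the locus act on these genes was not tested. Rhog, a small GTPase of dendrite growth, read 6.51 to 6.87 in controls and 6.21 to 6.60 in PolyI:C animals (-0.25 ± 0.07, adjusted p = 0.0625) and passed without control 4 (0.0441) or PolyI:C animal 6 (0.0494). Prr7, a synaptic membrane protein, differed by 0.10 ± 0.04 (adjusted p = 0.202), Cnih2, an AMPA receptor auxiliary subunit, by -0.06 ± 0.03 (adjusted p = 0.361) and the neurotrophin Bdnf by 0.05 ± 0.04 (adjusted p = 0.439).

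Markers of other cells and tissue were read from the same arrays. Over all tested probe sets, 0.805% were called lower and 52.0% had a difference above 0. All 10 measured myelin markers had differences below 0 and 5 were called lower, with a mean level of 7.52 to 7.92 in controls and 7.09 to 7.62 in PolyI:C animals. The number called was 2 (Mobp and Cldn11) without control 2 or PolyI:C animal 1 and 3 without control 3 or PolyI:C animal 4, and reached 8 without PolyI:C animal 5 and 9 with the replicate block. All 10 measured striatal markers had differences below 0 and Ppp1r1b was called lower (a call lost without control 2 or 6 or PolyI:C animal 1, 3 or 4), with a mean of 6.29 to 6.97 in controls and 6.26 to 6.43 in PolyI:C animals. Controls 5 and 6 had the highest striatal mean (6.97 and 6.81, the next control 6.56). With both left out, 13 of the 36 microRNA genes were called and 35 differences stayed above 0, with Mir665, Mir323 and Mir376b no longer past the threshold. Over the 36 genes, controls 5 and 6 averaged 4.79 and 4.76, controls 1 to 3 4.64, 4.68 and 4.64, and control 4 4.83. Since controls 5 and 6 were not low for the locus, leaving them out cannot show what part striatal content has. None of the measured 5 astrocyte, 4 microglial, 5 endothelial or 4 cortical neuron markers was called in limma, with 1 unadjusted p under 0.05, that of a cortical neuron marker. The part of myelin or striatal content in the result was not tested.

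Hairpin composition was alike in called and other genes. Called genes had hairpins with a median of 43.9% G and C, the others 43.4%, over a range of 29.1% to 62.0%. Across 35 genes with a hairpin sequence, the G and C share correlated with the level of the probe set (r = 0.68, rho = 0.62) but weakly with the difference between groups (r = -0.17). Hairpin length, 61 to 97 bases, correlated with the level at r = 0.43 and with the difference at r = -0.01. Order along the locus correlated with the difference at r = 0.32 over 36 genes. These are descriptions over genes that share arrays and transcripts.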

How the data were processed

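Log2 expression values for 35556 probe sets in 12 samples were used as deposited; the scale is read from the values, and the submitters' processing notes name RMA and Partek 6.6 without their order. Per the labels' protocols, 250 ng RNA was labelled for Mouse Gene 1.1 ST strips. No source used here gives the genome build behind the values. Names come from the platform annotation and may be outdated: 21218 carried 1 gene (21185 matched by gene identifier to RefSeq, GRCm38.p6), 1881 several and 12457 none.

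The 23099 probe sets with a gene were fitted in limma 3.58.1 (R 4.3.3; lmFit, eBayes) as PolyI:C minus control with no covariate. Tests were two-sided, and p-values were adjusted by Benjamini-Hochberg over all 23099. "Called" means an adjusted p under 0.05. Errors of differences are moderated standard errors. Precision is limited by the number of arrays. The fit was tested on simulated data. Sequences, hairpin alignments (Biopython 1.88) and plots (matplotlib 3.10.9) were handled in Python 3.11.15.

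The members and gene lists were chosen with earlier results of these data known. Sample values are given for the 10 called members with the largest difference, the 3 brightest and the 3 with the smallest differences. For Mir667 and Mir370 they are given as ranges. Others on which a statement turns were chosen after their values were seen. Of each list, up to 4 genes with the lowest p are named. Alternatives comprised a replicate block, scaling, brightness filters, all rows, array weights, moderation and each sample left out. One alternative, without controls 5 and 6, was added after seeing the data.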

Additional observations from a re-analysis of the deposited data

Results flagged for a closer look

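Of 72 groups examined (36 microRNA genes in 2 groups), 1 had a sample far from the others, where chance alone gives about 1 in 20. For Mir369, control 5 read 4.33 and the next control 4.09, a gap of 0.677 of the range of the control group against a critical ratio of 0.625 for 6 samples. Mir369 was called with control 5 left out, as with every other sample left out.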

How the results depend on the processing

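In the alternatives run, no difference of a single microRNA gene of the locus changed sign, and of 751 values of single microRNA genes under alternatives 641 kept their side of the threshold, 98 no longer passed and 12 newly passed. Against 16 microRNA genes of the locus called, array weights gave 17, median centring 16, quantile normalization 15, trend and robust moderation 11, the 25th percentile of brightness 11 (of 21 kept), the 50th percentile 6 (of 10 kept), all deposited rows 5, and no moderation 1 (Mir485), with 23 at an unadjusted p under 0.05 in each of the last pair. Each sample left out gave 6 to 19.

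Over all probe sets, against 653, all rows gave 414, no moderation 122, and each sample left out 230 to 818. Higher and lower calls numbered 467 and 186, but 239 and 285 after quantile normalization and 298 and 232 after median centring, where the median difference of the locus genes stayed at 0.21. Medians near 0 changed sign: over all probe sets to -0.0098 and -0.0073 in these settings, for microRNA genes outside the locus to -0.0096 after median centring, and for long transcripts to -0.017 after quantile normalization, among others. For microRNA genes outside the locus, against 7, the 50th percentile gave 3, all rows 1, no moderation 2, removal of controls 5 and 6 together 2, and single samples left out 1 to 10. For long transcripts, against 2, the 50th percentile gave 1, all rows 0, trend and robust moderation 1, no moderation 0, and single samples 1 to 3. For processing genes, against 0, the 50th percentile and trend and robust moderation gave 1 each (Ddx17), and single samples 0 to 1. The cause of these changes was not tested.

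Same-numbered samples did not deviate together (correlations from -0.09 to 0.11), and the labels do not say that the numbers pair animals. Such correlations cannot show whether same-numbered animals share a litter or array strip. With the replicate block, 14 locus genes were called, 13 of them shared with the fit without it, 536 probe sets over all, and 4 microRNA genes outside the locus. Taking the mean of all probe sets of a gene changed nothing, since each had 1, and no probe set of several genes held locus microRNAs alone, so that alternative gave no value. Dim probe sets and 6 animals a group limit the precision, with a median SE of 0.06 (log2) over the locus genes.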

Other observations

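The genes with profiles most like that of Mir382 over the 12 samples were ranked by Pearson's r among 21217 probe sets of a single gene. Both groups enter, so genes that differ between them in the same way rank high, and no p is given. The nearest were Mir539 (r = 0.974) and Mir369 (0.972), then, outside the locus, Rps6kb2 (0.966), which encodes a ribosomal protein S6 kinase, Mir485 (0.961), Trank1 (0.955) and Ssh3 (0.949), a cofilin phosphatase of the slingshot family. Rps6kb2, Trank1 and Ssh3 differed between the groups by 0.29 ± 0.05, 0.42 ± 0.07 and 0.22 ± 0.05 (adjusted p = 0.0129, 0.00813 and 0.0239). The first pair stayed called with each sample left out, and Ssh3 was lost without control 1, 2 or 3 or PolyI:C animal 1 or 4. Of the 100 most alike probe sets, 12 were microRNA genes of the locus, while Meg3 (r = 0.908) stood at rank 46 and Rian (0.849) at rank 193. Mir666 (0.12) and Mir370 (0.17) hardly followed Mir382. Below 0 lay the r of Mir299a (-0.53) and, among the long transcripts, of Dio3 (-0.81), Dlk1 (-0.48) and Wars (-0.29).

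The 7 probe sets that carry a locus microRNA together with another gene also had differences above 0, from 0.02 to 0.48. They were left out of the counts of locus genes but are among the 23099 tested. Of these 7, 1 was called higher and 3 had an unadjusted p under 0.05, against 2.02% and 19.1% of all probe sets.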
